A study of Mus musculus with 2 samples.

Results

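Lipases, fatty acid binding proteins and fatty acid transport proteins are described here in adipose tissue macrophages (ATMs) from mice kept on a control diet (CD) or fed a high-fat diet (HFD) overnight. The genes are *Lpl* and *Lipa*, *Fabp4*, *Fabp5* and *Fabp3*, and *Slc27a1* and *Slc27a4*, 7 of the 31053 genes in the deposited matrices. They were taken by name, and each had unique molecular identifiers (UMIs) in both libraries in the cells kept for analysis. Kept cells had 200 to 3500 detected genes, at most 10% mitochondrial UMIs and 0 UMIs of the endothelial genes *Pecam1*, *Kdr* and *Flt1*.

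Lipoprotein lipase, the product of *Lpl*, is secreted and releases fatty acids from the triglyceride of circulating lipoproteins. Lysosomal acid lipase, the product of *Lipa*, splits cholesteryl esters and triglycerides that a cell has taken up. Fatty acid transport proteins aid the entry of long-chain fatty acids and their coupling to coenzyme A, and fatty acid binding proteins carry them in the cytosol. In adipose tissue, *Lpl* and *Fabp4* are best known from adipocytes, *Fabp4* also from capillary endothelium, and both are found in macrophages that store lipid, where they accompany *Trem2* and *Cd9*.

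Both libraries were single-cell 3′ gene expression libraries (10X Genomics, V2 chemistry) of CD45+Lin-Ly6Clow/-F4/80+ macrophages sorted from the epididymal adipose tissue of male C57/BL6 mice aged 8 to 12 weeks. Each diet was represented by 1 library, made from the pooled fat of 3 mice, so cells are not replicates, diet cannot be told apart from library, and no p-value is given. Levels are UMIs of a gene per 1000000 UMIs summed over the cells of a set (CPM), with exact Poisson intervals, and ratios are log2 ratios of CPM with exact conditional binomial intervals. All intervals are 95% intervals and cover counting error only.

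The CD library held 4459 barcodes and 15003119 UMIs, of which 2309 cells (51.8%) were kept, and the HFD library held 3163 barcodes and 9164686 UMIs, of which 1964 cells (62.1%) were kept. Kept CD cells were deeper, with a median of 4479 UMIs against 2775.5. All 10 macrophage markers (among them *Adgre1*, *Cd68* and *Csf1r*) had UMIs, with a summed level of 25920 CPM in CD and 26318 CPM in HFD cells. Of the markers of other cells, erythroid genes were at 60.0 CPM in CD and 972 CPM in HFD, and stromal genes at 79.8 and 5.12 CPM. Adipocyte genes were at 110 and 72.6 CPM and peritoneal macrophage genes (*Gata6*, *Prg4*, *Alox15*, *Saa3*) at 34.5 and 165 CPM. *Saa3* held 230 of the 413 CD and 943 of the 1289 HFD UMIs of this last list. *Prg4* had 118 and 171, *Alox15* 59 and 170, and *Gata6* 6 and 5, so the sum is not read as a share of peritoneal macrophages. The libraries shared 14 barcode sequences, 7 of them among kept cells of both.

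Within the kept cells, 4 overlapping groups were set by other genes. *Lyve1*+ cells (1 UMI or more of a marker of resident ATMs) made up 1145 CD cells (49.6%) and 400 HFD cells (20.4%). *Ccr2*+ cells (1 UMI or more of the receptor that recruits monocytes) were 1291 (55.9%) and 1103 (56.2%). Cells with 10 or more UMIs of the lysozyme gene *Lyz1*, here *Lyz1*-high cells, were 544 (23.6%) and 656 (33.4%). *Trem2*+ cells (1 UMI or more of a lipid-sensing receptor) were 623 (27.0%) and 161 (8.20%). The *Trem2*+ cells of the diets were mixed differently, since 60.5% of them were also *Lyve1*+ in CD against 18.6% in HFD. Of the *Lyz1*-high cells, 95.6% and 89.8% were also *Ccr2*+. A limit of 10 UMIs favours deep cells, and the *Lyz1*-high medians were 8212.5 UMIs in CD and 6567 in HFD. The cells outside had medians of 3704 and 1831 UMIs. The part of depth in the *Lyz1*-high ratios below was not tested.

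In the whole of the kept cells, the largest ratios between the diets with enough UMIs were those of *Fabp4* and *Slc27a1*, both higher in HFD. A gene was counted as past 2-fold where it reached 100 UMIs in the cells compared and its log2 ratio lay at or beyond 1 or −1. Of the 7 genes, 6 had that many UMIs and 0 were past 2-fold, beside 3.44% of the 8632 genes counted in the same way. At that share, a count of 0 among 6 genes is not read as a result about them. The median log2 ratio of the 6 was 0.23, against −0.01 over all genes. The same counts within groups were 0 of 6 in *Lyve1*+ cells (2.64% of all genes), 0 of 6 in *Ccr2*+ cells (2.85%), 0 of 6 in *Lyz1*-high cells (1.69%) and 2 of 5 in *Trem2*+ cells (6.18%). The genes past 2-fold in *Trem2*+ cells were *Lpl* and *Fabp4*, both higher in HFD, and *Trem2*+ cells also had the highest median of the genes, 0.996 against −0.04 over all genes.

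**Figure D1:**
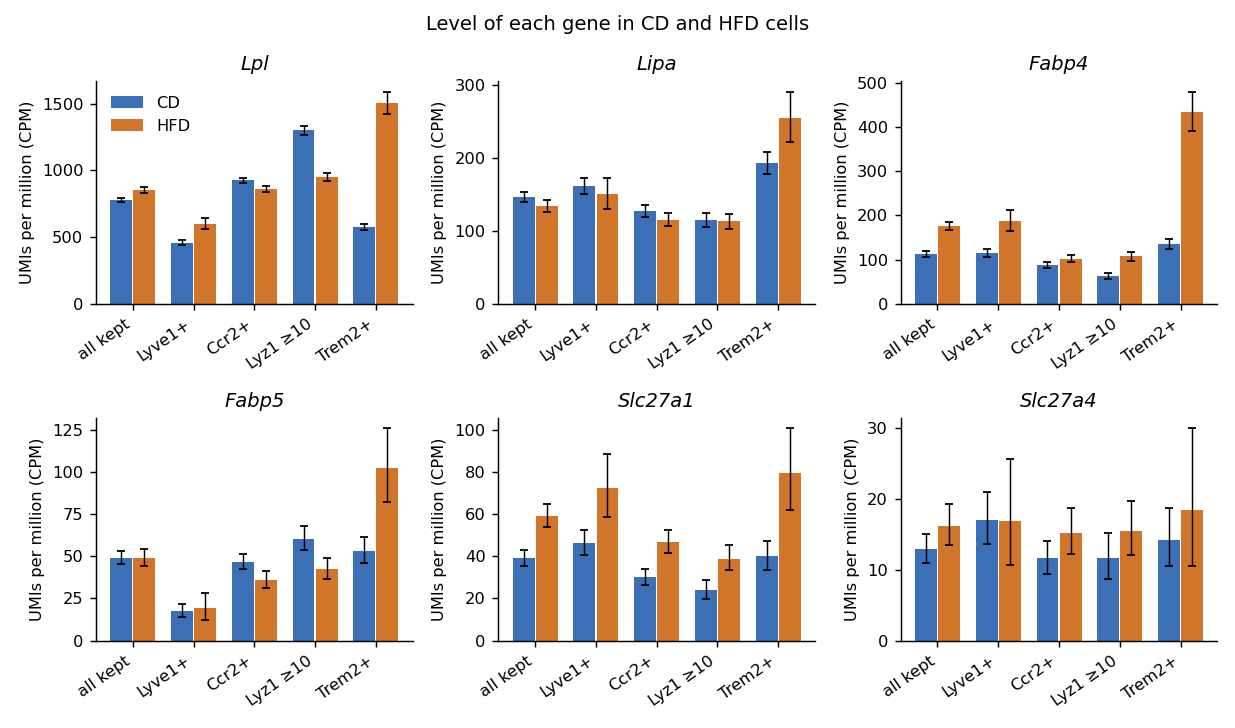
Level of each gene in UMIs per 1000000 UMIs (CPM) in all kept cells and in the 4 marker groups, with CD in blue, HFD in orange and 95% Poisson intervals as error bars. In *Trem2*+ cells the HFD bar of *Lpl* stands at 1505 CPM beside 575 CPM in CD, while in *Lyz1*-high cells (10 or more UMIs) it stands at 950 beside 1301 CPM.

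*Lpl* (ENSMUSG00000015568, 10 exons at chr8:68880491-68907448 on the plus strand of GRCm38) was at 775 CPM in CD and 853 CPM in HFD, a log2 ratio of 0.14 (0.09 to 0.18) from 9283 and 6669 UMIs. The near equality of these totals hid opposite differences between groups. In *Trem2*+ cells the level was 575 CPM in CD and 1505 CPM in HFD, a log2 ratio of 1.39 (1.29 to 1.49). In *Lyve1*+ cells it was 458 and 600 CPM, a log2 ratio of 0.39 (0.27 to 0.51). In *Lyz1*-high cells the order turned, with 1301 CPM in CD and 950 CPM in HFD, a log2 ratio of −0.45 (−0.51 to −0.40). *Ccr2*+ cells lay between, at 925 and 861 CPM (−0.10, −0.15 to −0.05), and this small difference changed sign when each cell was weighted equally (0.01) or thinned to 800 UMIs (0.08).

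The order of the groups by *Lpl* level therefore differed between the libraries. In CD it ran from *Lyz1*-high (1301 CPM) over *Ccr2*+ (925) and *Trem2*+ (575) to *Lyve1*+ cells (458). In HFD *Trem2*+ cells came first (1505 CPM), followed by *Lyz1*-high (950), *Ccr2*+ (861) and *Lyve1*+ cells (600). With the cells that 2 groups share left out, all 6 pairs of groups differed by more than counting error in each library.

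Set against the kept cells outside a group, *Lpl* was higher in CD *Lyz1*-high cells (1301 against 440 CPM, log2 ratio 1.56, 1.501 to 1.62) and CD *Ccr2*+ cells (925 against 415 CPM, 1.16, 1.08 to 1.24). The HFD values of the same ratios were smaller, 0.39 (0.32 to 0.46) and 0.06 (−0.03 to 0.14), the latter holding 0. When groups were called in cells thinned to 800 UMIs, the CD *Ccr2*+ ratio was 0.34. *Lyve1*+ cells were lower in both libraries, with −1.16 (−1.22 to −1.09) in CD and −0.59 (−0.70 to −0.48) in HFD. *Trem2*+ cells lay below the rest in CD (575 against 858 CPM, −0.58, −0.65 to −0.51) and above it in HFD (1505 against 772 CPM, 0.96, 0.88 to 1.05). With cells in more than 1 group left out of both sides, the CD value became 0.87, so its sign depended on which cells were compared. That also took most *Lyz1*-high cells out of the cells outside, since 95.6% of them were also *Ccr2*+ in CD. The part of either side in this turn was not tested.

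*Lipa* (ENSMUSG00000024781, 10 exons at chr19:34492318-34527474 on the minus strand) differed least between the diets among the genes with over 1000 UMIs. It was at 146 CPM in CD and 134 CPM in HFD, a log2 ratio of −0.12 (−0.23 to −0.01). Within groups, the interval held 0 in *Lyve1*+ cells (161 and 150 CPM) and *Lyz1*-high cells (115 and 113 CPM). It lay below 0 in *Ccr2*+ cells (127 and 115 CPM, −0.14, −0.28 to −0.00) and above 0 in *Trem2*+ cells (192 and 255 CPM, 0.40, 0.18 to 0.63).

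*Lipa* was highest in *Trem2*+ and lowest in *Lyz1*-high cells in both libraries. In HFD, however, *Ccr2*+ and *Lyz1*-high cells were close, at 115 (107 to 124) and 113 (103 to 123) CPM. *Trem2*+ cells exceeded the cells outside by a log2 ratio of 0.60 (0.46 to 0.74) in CD, at 192 against 127 CPM, and by 1.09 (0.87 to 1.31) in HFD, at 255 against 119 CPM. *Ccr2*+ cells were lower than the cells outside, with −0.60 (−0.74 to −0.46) in CD and −0.77 (−0.96 to −0.58) in HFD. The *Lyz1*-high ratios were −0.54 and −0.53, but the HFD value became 0.19 without the cells of more than 1 group. At most 67 HFD *Lyz1*-high cells remained there. With the cells shared by 2 groups left out, CD *Ccr2*+ cells had less *Lipa* (147 CPM) than the 24 remaining *Lyz1*-high cells (270 CPM). HFD *Ccr2*+ cells likewise had 140 CPM against 223 CPM in 67 remaining *Lyz1*-high cells (−0.67, −1.05 to −0.27).

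**Figure D2:**
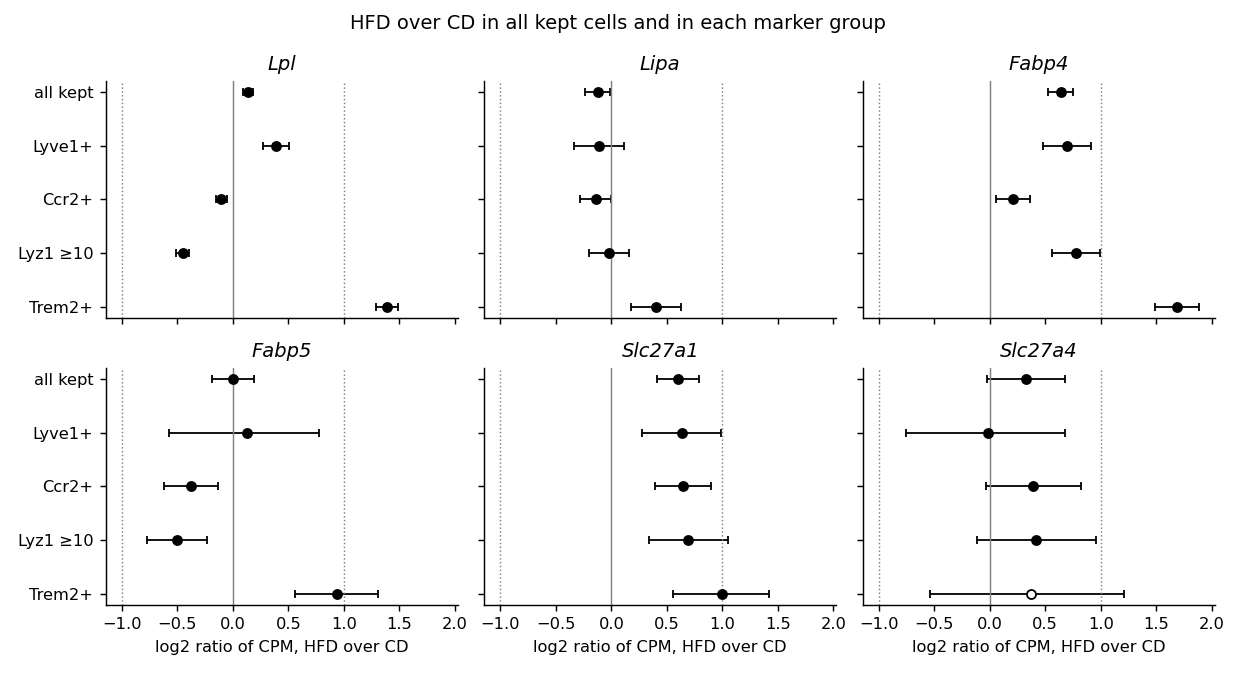
Log2 ratio of CPM, HFD over CD, for each gene in all kept cells and in the 4 marker groups, with 95% counting intervals. Open points have under 100 UMIs, the solid line marks 0 and the dotted lines mark 2-fold. In the *Trem2*+ row the points of *Lpl* (1.39) and *Fabp4* (1.68) lie beyond the 2-fold line, with *Slc27a1* (0.996) just under it.

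*Fabp4*, a cytosolic carrier of fatty acids (ENSMUSG00000062515, 4 exons at chr3:10204088-10208576 on the minus strand), was at 113 CPM in CD and 176 CPM in HFD, from 1352 and 1373 UMIs. The log2 ratio was 0.64 (0.53 to 0.75). It was higher in HFD in each group: 116 and 187 CPM in *Lyve1*+ cells (0.70, 0.48 to 0.91), 62.7 and 107 CPM in *Lyz1*-high cells (0.78, 0.56 to 0.99), and 87.9 and 102 CPM in *Ccr2*+ cells (0.21, 0.05 to 0.37). The largest of its ratios was again in *Trem2*+ cells, at 135 CPM in CD and 434 CPM in HFD (1.68, 1.48 to 1.88). The *Ccr2*+ ratio became −0.04 when each cell was weighted equally.

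The *Fabp4* ratios depended on which barcodes were kept. The 55 CD barcodes with an endothelial UMI, which the rule left out, held 1714 *Fabp4* UMIs (5565 CPM), more than all kept CD cells together, and 7 of them held 1625. The 57 such HFD barcodes held 347 *Fabp4* UMIs (1273 CPM). With them the ratio over all cells became −0.23, that in *Ccr2*+ cells −0.76 and that in *Trem2*+ cells 0.32, still higher in HFD but under 2-fold.

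Kept cells with a UMI of an adipocyte gene (*Adipoq*, *Plin1*, *Cidec*, *Lep* or *Car3*) had 223 CPM of *Fabp4* in CD and 236 CPM in HFD, against 88.1 and 168 CPM in cells without. Leaving those cells out raised the ratio over all kept cells to 0.93. Shallow cells also had more *Fabp4*: CD cells under 1500 UMIs had 1027 CPM, with 683 CPM of those adipocyte genes, and HFD cells under 1500 UMIs had 514 CPM. In cells of 6000 UMIs or more the levels were 77.2 CPM in CD and 125 CPM in HFD. HFD was thus lower than CD in the cells under 1500 UMIs and higher in these deep cells. The part of adipocyte or endothelial RNA in the *Fabp4* levels was not tested.

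Across groups, *Fabp4* was lower in *Ccr2*+ cells than in the cells outside, with 87.9 against 173 CPM in CD (−0.98, −1.14 to −0.82) and 102 against 418 CPM in HFD (−2.04, −2.20 to −1.88). *Lyz1*-high cells were lower too, at −1.21 in CD and −1.31 in HFD. The latter was −0.40 without cells in more than 1 group, but at most 67 of the 656 *Lyz1*-high cells remained there. *Lyve1*+ cells were at 0.06 and 0.11 with both intervals holding 0, and at 0.53 and 0.41 without cells of 20 or more *Fabp4* or *Fabp5* UMIs. Cells outside *Ccr2*+ were shallower (medians of 3138.5 and 1550 UMIs against 5945 and 4939) and held more adipocyte RNA, with 191 and 147 CPM of the 8 adipocyte markers against 76.8 and 49.6 CPM. HFD cells outside *Ccr2*+ also held 4097 CPM of erythroid and 670 CPM of peritoneal macrophage genes. The part of these in the *Ccr2*+ ratios was not tested.

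*Trem2*+ cells exceeded the cells outside in *Fabp4* by 0.38 (0.22 to 0.55) in CD and by 1.60 (1.42 to 1.77) in HFD, at 434 against 143 CPM. In HFD these *Trem2*+ cells were no richer in adipocyte genes, at 57.6 CPM, and 6 of the 8 adipocyte markers had UMIs, with *Plin1* and *Lep* at 0. When each cell counted equally the CD value became −0.68 and the HFD value 0.43.

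*Fabp5*, a second cytosolic carrier (ENSMUSG00000027533, 4 exons at chr3:10012548-10016607 on the plus strand), had the same level in both libraries, 49.3 CPM, from 590 and 385 UMIs. The log2 ratio was 0.00 (−0.19 to 0.19). By group the point values differed in direction, with HFD lower in *Ccr2*+ cells (46.8 and 36.1 CPM, −0.37, −0.62 to −0.13) and *Lyz1*-high cells (60.5 and 42.7 CPM, −0.50, −0.78 to −0.23). These rested largely on a few cells: 2 CD *Lyz1*-high cells held 72 of the group's 282 UMIs, and without cells of 20 or more *Fabp4* or *Fabp5* UMIs the ratios were −0.13 and −0.08. In *Trem2*+ cells HFD was higher, at 53.5 and 103 CPM (0.94, 0.56 to 1.31), from 188 and 89 UMIs.

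*Fabp5* had the lowest ratios of the genes in *Lyve1*+ cells. These had 17.6 CPM against 73.8 CPM outside in CD (−2.07, −2.40 to −1.74) and 19.2 against 55.3 CPM in HFD (−1.53, −2.17 to −0.94). *Trem2*+ cells exceeded the cells outside in HFD (103 against 42.6 CPM, 1.27, 0.91 to 1.61), while the CD interval held 0 (0.17, −0.09 to 0.42). *Ccr2*+ cells were lower in HFD (36.1 against 92.3 CPM, −1.35, −1.65 to −1.06) and not separated from the rest in CD (−0.24, −0.49 to 0.01). The HFD value was −0.27 in thinned cells. Of the 194 *Fabp5* UMIs outside *Ccr2*+ in CD, 117 lay in 3 cells, and without cells of 20 or more *Fabp4* or *Fabp5* UMIs the CD ratio turned to 0.86 and the HFD ratio was −0.92, under 2-fold. *Lyz1*-high cells were above the rest in CD (0.52, 0.28 to 0.76) and below it in HFD (−0.44, −0.74 to −0.15). Both signs turned when cells in more than 1 group were left out, to −1.28 and 0.61. At most 24 CD and 67 HFD *Lyz1*-high cells remained there, with at most 26 and 38 *Fabp5* UMIs, so these turns rest on few cells. The HFD value was −0.05 without cells of 20 or more *Fabp4* or *Fabp5* UMIs. Leaving out those cells also turned the CD *Trem2*+ ratio to −0.31.

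A few cells carried much of *Fabp5*. In CD, 4 cells with 20 or more UMIs held 165 UMIs, 28.0% of its total, and in HFD 1 cell held 45 UMIs, 11.7%. CD cells with 47 and 46 *Fabp5* UMIs had 0 *Lpl* UMIs and 17 and 54 UMIs of dendritic cell markers, and the HFD cell had 22. The other 2 CD cells had 17 and 42 *Lpl* UMIs and were *Trem2*+. Without cells of 20 or more *Fabp4* or *Fabp5* UMIs, the ratio over all kept cells was 0.34 and that in *Trem2*+ cells 1.85. GRCm38 holds 5 processed pseudogenes of *Fabp5* with at least 300 matching bases at 93.6 to 98.3% identity, none among the genes counted, so its count is uncertain where reads match both.

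*Fabp3*, the carrier best known from heart and muscle (ENSMUSG00000028773, 4 exons at chr4:130308595-130315463 on the plus strand), was barely detected. Its 12 CD and 13 HFD UMIs were 1.002 and 1.66 CPM, a log2 ratio of 0.73 with an interval from −0.52 to 1.99, so no difference could be seen at this depth. Only 0.520% of CD and 0.458% of HFD cells had a UMI. A pseudogene, *Fabp3-ps1*, matches 402 bases at 99.3% identity, which makes even these counts uncertain.

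**Figure D3:**
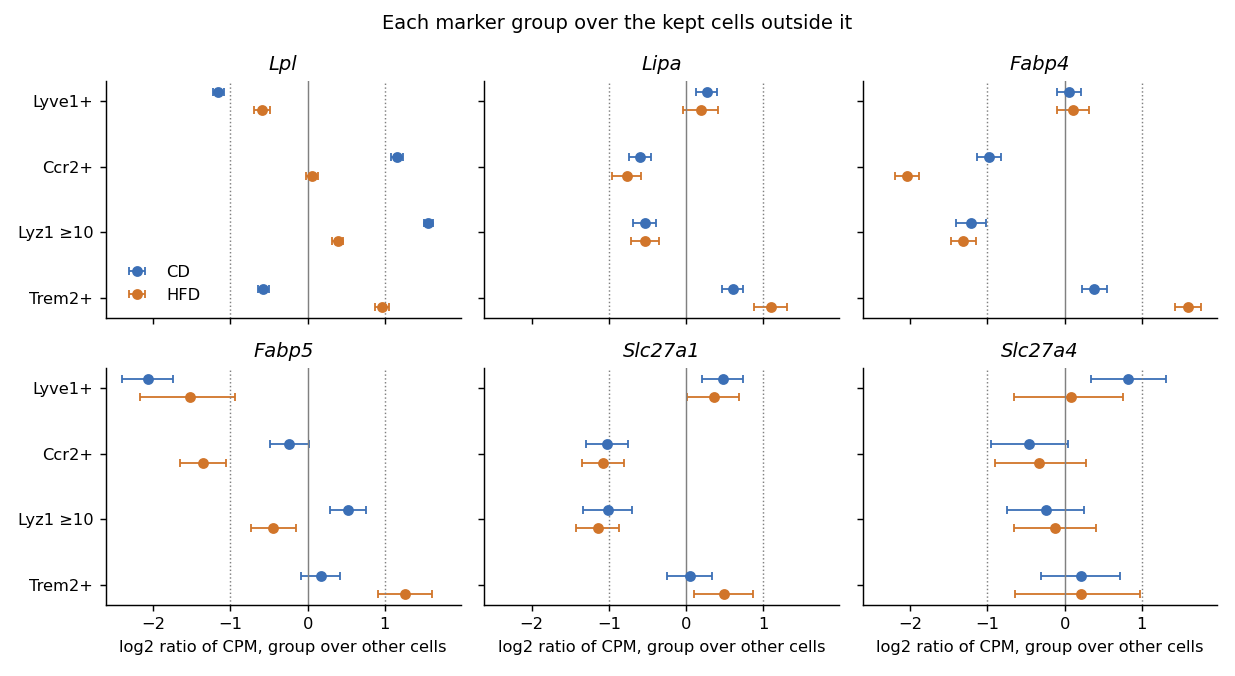
Log2 ratio of CPM of each marker group over the kept cells outside it, with CD in blue, HFD in orange and 95% counting intervals. The *Trem2*+ points of *Lpl* fall on opposite sides of 0, at −0.58 in CD and 0.96 in HFD, while the *Lipa* points of all 4 groups fall on the same side in both libraries.

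*Slc27a1* encodes FATP1 (ENSMUSG00000031808, 13 exons at chr8:71568882-71587302 on the plus strand), a transport protein known for insulin-responsive fatty acid uptake in fat and muscle. It was at 39.0 CPM in CD and 59.0 CPM in HFD, a log2 ratio of 0.60 (0.41 to 0.79) from 467 and 461 UMIs. It was higher in HFD in each group. The ratios were 0.64 (0.28 to 0.99) in *Lyve1*+, 0.65 (0.40 to 0.90) in *Ccr2*+, 0.69 (0.34 to 1.05) in *Lyz1*-high and 0.996 (0.56 to 1.42) in *Trem2*+ cells. The *Trem2*+ levels of 39.8 and 79.5 CPM put it just under 2-fold.

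*Slc27a1* was higher in shallow cells, at 78.6 and 140 CPM in CD and HFD cells under 1500 UMIs and 25.4 and 37.3 CPM in cells of 6000 UMIs or more. HFD was the higher library at both ends. *Ccr2*+ cells had less *Slc27a1* than the cells outside, with 29.9 against 61.0 CPM in CD (−1.03, −1.30 to −0.76) and 46.8 against 98.9 CPM in HFD (−1.08, −1.35 to −0.80). Called in thinned cells, these ratios were −0.60 and −0.29. *Lyz1*-high cells, which were deeper than the cells outside, gave −1.01 and −1.14, and *Lyve1*+ cells were higher at 0.47 and 0.36. Among pairs of groups without their shared cells, *Lyve1*+ and *Trem2*+ cells, and *Ccr2*+ and *Lyz1*-high cells, did not differ beyond counting error in either library. Thinning every cell to 800 UMIs turned the CD *Lyve1*+ ratio to −0.49, and leaving out cells in more than 1 group turned the CD *Lyz1*-high ratio to 0.15. The latter left at most 24 *Lyz1*-high cells with at most 6 *Slc27a1* UMIs.

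*Slc27a4* encodes FATP4 (ENSMUSG00000059316, 13 exons at chr2:29802634-29817522 on the plus strand), known for fatty acid uptake in intestine and skin. It was at 12.9 CPM in CD and 16.1 CPM in HFD, a log2 ratio of 0.33 whose interval held 0 (−0.02 to 0.68). No group differed between the diets beyond counting error, and of the 8 ratios of a group to the cells outside, that of CD *Lyve1*+ cells alone lay off 0 (17.0 against 9.63 CPM, 0.82, 0.35 to 1.31).

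Counted over groups, 16 of 48 ratios of a group to the cells outside were past 2-fold. In *Lyve1*+ cells these were 2 of 6 genes in CD (*Lpl* and *Fabp5*, lower; 6.65% of all genes were past 2-fold) and 1 of 6 in HFD (*Fabp5*, lower, 4.99%). In *Ccr2*+ cells they were 2 of 6 in CD (*Lpl* higher, *Slc27a1* lower, 9.29%) and 3 of 6 in HFD (*Fabp4*, *Fabp5* and *Slc27a1*, lower, 9.45%). *Lyz1*-high cells had 3 of 6 in CD (*Lpl* higher, *Fabp4* and *Slc27a1* lower, 12.4%) and 2 of 6 in HFD (*Fabp4* and *Slc27a1*, lower, 9.77%). *Trem2*+ cells had 0 of 6 in CD (1.34%) and 3 of 6 in HFD (*Lipa*, *Fabp4* and *Fabp5*, higher, 4.8%). The median over the 6 genes for *Trem2*+ cells was 0.19 in CD and 1.03 in HFD.

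High levels were found in the HFD *Trem2*+ cells without *Ccr2*. In the 65 such cells, compared with 1007 *Ccr2*+ cells without *Trem2*, *Fabp4* was at 870 against 88.2 CPM, *Lpl* at 2352 against 835 CPM and *Fabp5* at 199 against 33.9 CPM. When cells of 20 or more *Fabp4* or *Fabp5* UMIs were removed, the 63 cells left had 613 CPM of *Fabp4* and 209 CPM of *Fabp5*. In CD, the same comparison (303 against 971 cells, none removed) gave 136 against 71.3 CPM for *Fabp4*. *Lpl* was lower there, at 479 against 1028 CPM, and *Fabp5* was at 41.5 against 41.9 CPM. Without cells of 20 or more *Fabp4* or *Fabp5* UMIs (302 against 970 cells), CD *Fabp5* was lower, at 23.2 against 41.7 CPM (−0.85, −1.44 to −0.30). CD *Fabp4* was then at 128 against 66.2 CPM. *Trem2*+ cells were next split by *Cd9*, a tetraspanin that marks lipid-associated macrophages. *Trem2*+*Cd9*+ cells were few, 46 in CD and 29 in HFD, beside 577 and 132 *Trem2*+*Cd9*- cells. They were deeper, with medians of 7493 and 6483 UMIs against 4856 and 4170, and the part of depth in the *Cd9* split was not tested.

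*Lpl* was at 1393 CPM in *Cd9*+ against 479 CPM in *Cd9*- CD cells (log2 ratio 1.54, 1.39 to 1.69), and at 3220 against 964 CPM in HFD (1.74, 1.58 to 1.90). *Fabp4* was at 337 against 111 CPM in CD (1.60, 1.29 to 1.90) and 1176 against 200 CPM in HFD (2.56, 2.24 to 2.87). *Fabp5* was at 202 against 35.96 CPM in CD (2.49, 2.05 to 2.93) and 230 against 62.1 CPM in HFD (1.89, 1.26 to 2.53). *Lipa* followed at a smaller scale, at 326 against 177 CPM and 418 against 203 CPM, while the *Slc27a1* intervals held 0 in both libraries. The binding protein values rested on a few cells. In CD, 2 of the 46 *Cd9*+ cells held 70 of 125 *Fabp4* UMIs and 1 held 48 of 75 *Fabp5* UMIs, and in HFD 4 of the 29 held 132 of 245 *Fabp4* UMIs.

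Without cells of 20 or more *Fabp4* or *Fabp5* UMIs, the CD intervals of both binding proteins held 0, at 109 against 108 CPM for *Fabp4* (0.02, −0.52 to 0.51) and 38.3 against 28.4 CPM for *Fabp5* (0.43, −0.53 to 1.28). In HFD, *Fabp4* was then at 654 against 200.1 CPM (1.71, 1.33 to 2.08) and *Fabp5* at 272 against 62.1 CPM (2.13, 1.495 to 2.77). The lipases stayed higher in *Cd9*+ cells of both libraries, with ratios of 1.43 and 1.65 for *Lpl* and 0.55 and 0.89 for *Lipa*. *Cd9*+ cells without *Trem2* (108 in CD, 85 in HFD) were deep too, with medians of 7610.5 and 6827 UMIs. With no cells left out, they had 952 and 965 CPM of *Lpl*, 71.1 and 219 CPM of *Fabp4*, and 117 and 172 CPM of *Fabp5*. Single cells held 46 of their 102 CD and 45 of their 97 HFD *Fabp5* UMIs.

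The split by *Lyve1* bore on the diets' different mixtures. *Trem2*+*Lyve1*- cells (246 in CD, 131 in HFD) exceeded *Trem2*+*Lyve1*+ cells (377 and 30) in *Lpl*, at 827 against 381 CPM in CD (1.12, 0.99 to 1.25) and 1558 against 1205 CPM in HFD (0.37, 0.13 to 0.62). Both subsets were higher in HFD than in CD. *Fabp5* was at 99.96 against 17.6 CPM in CD (2.50, 1.96 to 3.08) and at 110 against 61.8 CPM in HFD (0.83, −0.22 to 2.09). *Fabp4* was at 145 against 128 CPM in CD and 468 against 239.6 CPM in HFD. Without cells of 20 or more *Fabp4* or *Fabp5* UMIs, the CD ratios were 1.35 for *Fabp5* and −0.64 for *Fabp4*, and the HFD ratios were 0.88 and 0.35. The *Lpl* ratios were then 0.9985 in CD and 0.24 (−0.00 to 0.50) in HFD.

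**Figure D4:**
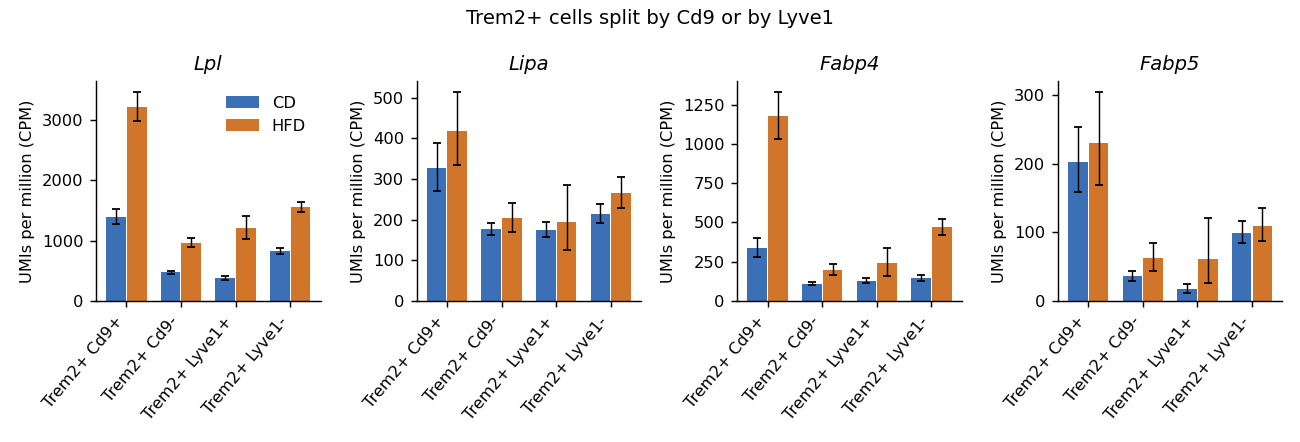
Levels of *Lpl*, *Lipa*, *Fabp4* and *Fabp5* in UMIs per 1000000 UMIs (CPM) in *Trem2*+ cells split by *Cd9* or by *Lyve1*, with CD in blue, HFD in orange and 95% Poisson intervals. The *Cd9*+ bars are the highest of each panel in both libraries, reaching 3220 CPM for *Lpl* and 1176 CPM for *Fabp4* in HFD, and the *Cd9*+ bars of *Fabp4* and of CD *Fabp5* rest on 1 to 4 cells of 20 or more UMIs for most of their UMIs.

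Other markers moved with the *Trem2*+ result. The 7 lipid-associated macrophage markers, which include *Trem2* itself and all had UMIs, summed to 2568 CPM in CD and 6809 CPM in HFD *Trem2*+ cells, against 2032 and 3615 CPM in all kept cells. *Trem2* went the other way over all kept cells, at 84.3 and 40.4 CPM. *Lgals3*, also among the 7, was at 1332 and 3592 CPM in *Trem2*+*Lyve1*- cells. It was higher in HFD without *Trem2* too, at 501 and 1234 CPM in *Lyve1*+*Trem2*- cells. The 4 peritoneal macrophage markers, all with UMIs, summed to 68.6 and 490 CPM, in 20 (3.21%) and 11 (6.83%) of the *Trem2*+ cells. *Saa3* held 161 of the 241 CD and 333 of the 425 HFD UMIs, and *Gata6*, which defines that type, had 1 and 2 UMIs. Without those cells the HFD over CD ratio of *Lpl* was 1.44, that of *Fabp4* 1.62, that of *Fabp5* 0.72 and that of *Slc27a1* 1.05. Depth was similar in the *Trem2*+ cells of both libraries, with medians of 4965 and 5117 UMIs. The cells outside were shallower, above all in HFD, with medians of 4170.5 and 2546 UMIs. The part of depth in the ratios of *Trem2*+ cells to the cells outside was not tested.

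Because the 4 groups overlap, cells were also sorted into disjoint classes by all 4 markers, and 10 classes had 20 or more cells in both libraries. *Fabp4* was higher in HFD in 8 of the 10 classes and the interval of the other 2 held 0. *Slc27a1* was higher in 4 and undecided in 6, and *Lipa* higher in 1. *Lpl* was higher in HFD in 6 classes and lower in 2, the 2 *Lyz1*-high classes without *Trem2*. The larger of these, *Ccr2*+ and *Lyve1*- (351 and 510 cells), was at 1396 CPM in CD and 921 CPM in HFD (−0.60, −0.67 to −0.53). *Fabp5* was lower in HFD in 3 classes and higher in 1. When cells of 20 or more *Fabp4* or *Fabp5* UMIs were left out, *Fabp5* was lower in 1 and higher in 2, *Fabp4* higher in 10 and *Lpl* higher in 5 and lower in 2.

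The class with *Trem2* alone (78 CD and 37 HFD cells) showed the widest gaps of both binding proteins. *Fabp4* was at 132 CPM in CD and 942 CPM in HFD (2.83, 2.33 to 3.36), *Lpl* at 898 and 2875 CPM (1.68, 1.46 to 1.90) and *Fabp5* at 56.7 and 251 CPM (2.15). With the same cells left out, the *Fabp4* ratio was 2.35 and the *Fabp5* ratio 2.21. It was also the 1 class in which *Lipa* was higher in HFD, at 280 and 515 CPM (0.88, 0.43 to 1.33). Cells with *Lyve1* and *Trem2* but neither *Ccr2* nor high *Lyz1* (218 and 20 cells) gave the largest *Lpl* ratio, from 251 CPM in CD to 1265 CPM in HFD (2.33, 1.95 to 2.70). Cells with none of the markers (260 and 507) had 443 and 508 CPM of *Lpl*, within counting error, and 319 and 451 CPM of *Fabp4* (0.50).

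**Figure D5:**
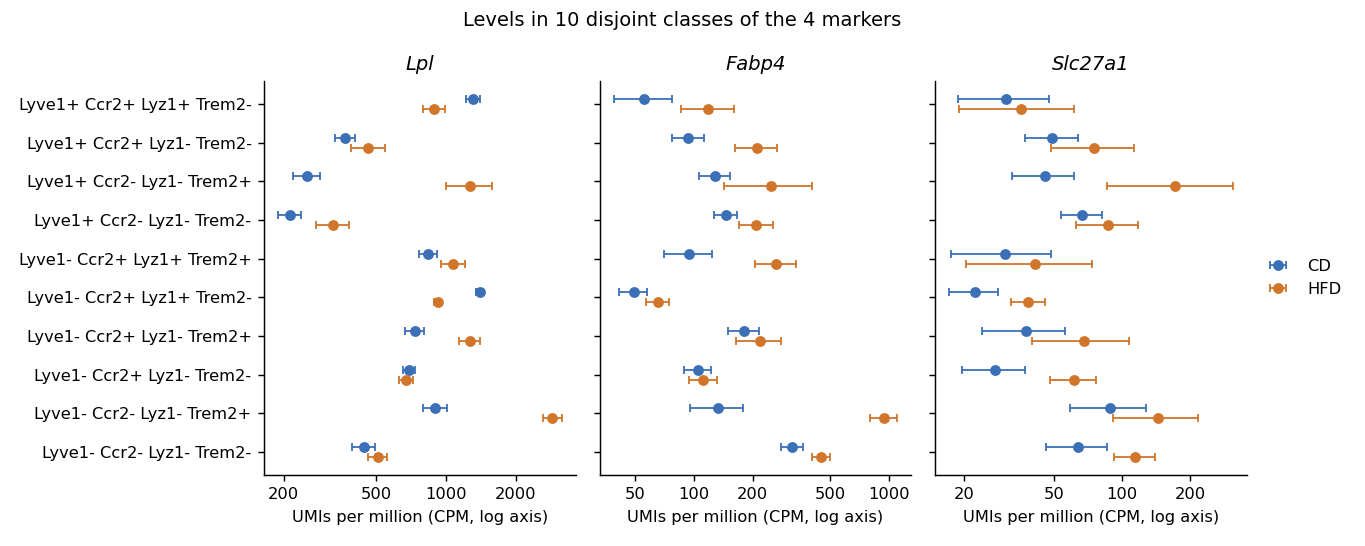
Levels of *Lpl*, *Fabp4* and *Slc27a1* in UMIs per 1000000 UMIs (CPM, log axis) in the 10 disjoint classes, where *Lyz1*+ means 10 or more UMIs, with CD in blue, HFD in orange and 95% Poisson intervals. *Lpl* is higher in CD in the *Lyz1*+*Trem2*- classes (1396 against 921 CPM in the larger one), while *Fabp4* is nowhere lower in HFD by more than counting error.

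Weighting the HFD classes by the CD share of UMIs gave ratios at equal composition. *Fabp4* (0.74), *Slc27a1* (0.91) and *Slc27a4* (0.59) then had higher ratios than in the unweighted comparison, where the *Slc27a4* interval held 0. *Lpl* was at 0.09, *Lipa* at −0.00 and *Fabp5* at −0.27. These values have no intervals, and some weighted classes held few HFD counts. The class with *Lyve1* and *Trem2* alone had 218 CD but 20 HFD cells, with 11 *Slc27a1* UMIs and 1 *Slc27a4* UMI in HFD.

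Per cell, the genes were sparse. The median was 1 UMI for *Lpl* and 0 for the others, and the highest counts in 1 cell were 75 and 67 for *Lpl* in CD and HFD, 43 and 59 for *Fabp4*, 48 and 45 for *Fabp5* and 19 and 13 for *Lipa*. *Lpl* was carried by a minority, with 113 CD cells of 20 or more UMIs holding 36.8% of its UMIs and 62 such HFD cells holding 27.4%. Of the 11 cells with 20 or more *Fabp4* UMIs, 2 CD and 4 HFD cells were *Trem2*+ with *Cd9*, and another 2 CD cells had 83 and 43 UMIs of adipocyte markers.

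An *Lpl* UMI was found in 60.3% of CD and 57.3% of HFD cells. After thinning each cell to 800 UMIs, which left out 28 and 141 shallower cells, the shares were 28.2% and 33.0%, so the order of the libraries turned with depth. The *Lipa* shares were 46.0% and 32.8%, and 11.4% and 10.4% after thinning. *Fabp4* was found in 31.1% and 30.3%, and in 8.77% and 12.4% after thinning. Among *Trem2*+ cells the thinned *Fabp4* share was 7.87% (5.88 to 10.3) in CD, 49 of 623 cells, and was 32 of 160 cells (14.1 to 27.0%) in HFD, and the thinned *Lpl* share 23.6% and 40.0%. In *Lyz1*-high cells the thinned *Lpl* share was 54.2% in CD and 44.5% in HFD, the order of the CPM.

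Kept cells with 2 or more UMIs of lymphoid genes were also examined, which gave 7 CD and 5 HFD cells with medians of 7020 and 5720 UMIs. These cells were not shown to be lymphocytes and may be macrophages, so they do not measure free RNA. *Lpl* was found in 57.1% and 60.0% of them, at 121 and 305 CPM, and *Fabp4* in 28.6% of the CD cells and in 1 of the 5 HFD cells. The unthinned shares over all kept cells, at median depths of 4479 and 2775.5 UMIs, lay inside the wide intervals of these few cells (18.4 to 90.1% for *Lpl* in CD), and are not read as shares of expressing cells. In CPM, *Lpl* was higher in the kept cells as a whole, at 775 and 853.

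Other genes of fatty acid handling were counted from lists chosen by function. Over all kept cells, 0 of 5 other *Slc27* and *Acsl* genes, 0 of 3 cofactors and inhibitors of lipoprotein lipase and 0 of 8 uptake receptors were past 2-fold in either direction. Of the 9 other lipases and their regulators 1 was higher in HFD, as were 1 of 7 genes of lysosomal export and efflux and 1 of 10 transcriptional regulators, and 0 genes of these lists were lower. Of all 8632 genes counted in the same way, 1.03% were higher and 2.41% lower. None of the other FABP genes had 100 UMIs.

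The genes past 2-fold were *Hilpda*, an inhibitor of the triglyceride lipase ATGL, at 27.8 CPM in CD and 65.3 CPM in HFD (1.23, 1.03 to 1.43), *Abcg1*, a cholesterol exporter, at 17.3 and 51.7 CPM (1.58, 1.34 to 1.83), and *Cebpb*, a transcription factor, at 661 and 1426 CPM (1.11, 1.07 to 1.15). *Hilpda* (1.92, 1.02 and 1.02) and *Abcg1* (1.40, 1.47 and 1.13) were also past 2-fold in *Lyve1*+, *Ccr2*+ and *Lyz1*-high cells. *Cebpb* was so in *Lyve1*+ (1.11) and *Ccr2*+ cells (1.04). In *Trem2*+ cells the same 3 genes were past 2-fold, at 32.2 and 145 CPM for *Hilpda* (2.17), 13.9 and 66.8 CPM for *Abcg1* (2.26) and 616 and 1634 CPM for *Cebpb* (1.41). There they were joined by the scavenger receptor *Msr1*, at 52.1 and 105 CPM (1.01, 0.63 to 1.38), singled out after its values were seen. The fatty acid receptor *Cd36* was at 806 and 1010 CPM over all kept cells (0.33).

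Of the 71 other genes listed, 9 met the rule for naming. Those given here were picked because they passed 2-fold in the same direction in both libraries between a group and the cells outside. They therefore do not show how the lists as wholes differed between groups. Of all genes, 4.99% to 12.4% were past 2-fold in the *Lyve1*+, *Ccr2*+ and *Lyz1*-high comparisons. *Angptl4*, which inhibits lipoprotein lipase, was higher in *Lyve1*+ cells than outside (1.13 in CD, 1.27 in HFD) and lower in *Ccr2*+ (−1.76, −2.64) and *Lyz1*-high cells (−2.89, −3.09), opposite to the CD order of *Lpl*. The apolipoprotein gene *Apoe* (1.27 and 1.08 in *Lyve1*+, −2.38 and −2.19 in *Lyz1*-high cells) and the cholesterol exporter *Abca1* (1.28 and 1.42, −2.02 and −2.42) had the same signs. *Cd36* was lower in *Ccr2*+ (−1.25 and −1.53) and *Lyz1*-high cells (−1.39 and −1.30), as was *Msr1* (−1.34 and −1.67, −1.75 and −2.13). The oxidised lipoprotein receptor *Olr1* went the other way, lower in *Lyve1*+ (−1.40 and −1.94) and higher in *Lyz1*-high cells (2.42 and 1.39).

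Likeness was described by Pearson's r of log2(CPM + 10) over 23 classes with 20 or more cells (12 of CD and 11 of HFD, each library centred on its mean), among 7000 genes. The classes share libraries and differ in depth, and no p is given. *Lpl* was most like *Rgs1* (0.94), *Lgals3* (0.94), *Pkm* (0.91), *Cct5* (0.89) and *Gpr65* (0.89). *Lipa* was most like *Anxa5* (0.94), *Fth1* (0.93), *Cd68* (0.92), *Cstb* (0.92) and *Plin2* (0.90), and *Fabp4* like *Sirpa* (0.82), *Ctsl* (0.80), *Abhd12* (0.79), *Cd63* (0.79) and *Cdk6* (0.78). Among the genes themselves, *Lipa* went with *Fabp4* (0.73) and *Slc27a1* (0.69), *Lpl* with *Fabp5* (0.54), while r of *Lpl* and *Fabp4* was −0.02. In thinned cells, *Fabp4* and *Fabp5* met in 1 cell 1.57 times as often in CD as the product of their shares gives, and 1.83 times in HFD, but from 7 and 10 cells.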

How the data were processed

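Single-cell RNA-seq counts of 2 libraries (1 per diet, 3 pooled mice each) were analysed. The authors deposited matrices of UMI counts. The submitters' processing notes name Cell Ranger 3.0.2 and mm10, and the study's methods Ensembl release 93. These counts were not normalized.

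Cells were kept by the limits given above. Endothelial UMIs left out 55 CD and 57 HFD barcodes, and the mitochondrial limit 2059 and 1132. Counts were summed per library and group, and levels, log2 ratios and shares were computed with Python 3.11.15, numpy 2.4.6, scipy 1.17.1 and pandas 2.3.3. Shares have Clopper-Pearson intervals. With 1 library per diet there was no test, and scripts were tested on simulated data. Doublets were kept, since Scrublet's own threshold (scanpy 1.11.5) called 0 and 1 barcodes. The alternative without the highest scores (99 and 63 kept cells) is covered in the closing section. Gene positions are those of GENCODE M21 on GRCm38. A 3′ assay does not give levels per length, so levels were not compared between genes.

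The 7 genes, groups and lists were chosen with earlier results of these data known. Named genes of the lists were those past 2-fold between the diets in all kept cells or, in the same direction in both libraries, between a group and the cells outside, and named similar genes were the 5 with the highest r.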

Additional observations from a re-analysis of the deposited data

Results flagged for a closer look

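Differences between groups under the same contrast were picked out where counting intervals lay on opposite sides of 0, and these differences were not tested, since each library is 1 sample. *Lpl* in *Trem2*+ cells over the cells outside had a log2 ratio of −0.58 in CD and 0.96 in HFD. *Lpl* in HFD over CD was higher in *Lyve1*+ (0.39) and *Trem2*+ cells (1.39) and lower in *Ccr2*+ (−0.10) and *Lyz1*-high cells (−0.45). *Lipa* in HFD over CD was −0.14 in *Ccr2*+ and 0.40 in *Trem2*+ cells. *Fabp5* in HFD over CD was −0.37 in *Ccr2*+, −0.50 in *Lyz1*-high and 0.94 in *Trem2*+ cells, and in *Lyz1*-high cells over the cells outside it was 0.52 in CD and −0.44 in HFD. Without cells of 20 or more *Fabp4* or *Fabp5* UMIs, the *Fabp5* values were −0.13, −0.08 and 1.85 for HFD over CD and 0.73 and −0.05 for *Lyz1*-high cells over the cells outside.

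Barcodes over the mitochondrial limit without endothelial UMIs (2018 in CD and 1108 in HFD, with medians of 894 and 738.5 UMIs) were used in no comparison above. In them HFD was higher than CD in *Lpl* (388 and 493 CPM, 0.34, 0.18 to 0.51), *Fabp4* (393 and 512 CPM, 0.38, 0.22 to 0.54) and *Slc27a1* (82.9 and 134 CPM, 0.69, 0.35 to 1.03). *Lipa* was lower in HFD (107 and 77.9 CPM, −0.46, −0.85 to −0.07).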

How the results depend on the processing

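The cells were recounted under other limits on genes, mitochondrial and endothelial UMIs, without the highest doublet scores, and with other weights and depths. Another scaling was used for all kept cells only. Other marker calls were used only for groups over the cells outside, so HFD over CD within groups was not recounted under them. Of 98 values for HFD over CD in all kept cells, 81 stayed inside the original counting interval, as did 301 of 331 within groups and 620 of 822 for a group over the cells outside. Of the 204 values within groups whose original interval lay off 0, 5 had the opposite sign, and of 240 values of ratios past 2-fold between a group and the cells outside, 206 stayed past it. The causes of these shifts were not tested. Leaving out cells of 20 or more *Fabp4* or *Fabp5* UMIs, barcodes shared by the libraries, or cells with a peritoneal macrophage UMI was chosen after seeing the data.

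For HFD over CD in all kept cells, *Lpl* (0.14) was 0.0196 at a mitochondrial limit of 5%, 0.20 at 1000 genes or more, 0.0835 without adipocyte UMIs, 0.21 with cells weighted equally, 0.29 thinned and 0.0874 at CD composition. *Lipa* was −0.0047 at CD composition. *Fabp4* (0.64) was −0.0481 in all barcodes, −0.23 with endothelial UMIs allowed, 0.93 without adipocyte UMIs and 0.53 thinned. *Fabp5* (0.00) was −0.23 with equal weights, 0.34 without its highest cells and −0.27 at CD composition. *Slc27a1* (0.60) was 0.36 at 1000 genes or more, 0.82 with equal weights and 0.91 at CD composition. *Slc27a1* in CD *Lyz1*-high cells over the cells outside turned from −1.01 to 0.15 without cells in more than 1 group. That setting left at most 24 of these *Lyz1*-high cells.

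At 1.5-fold, 2 of 6 genes passed in all kept cells in place of 0, beside 947 in place of 297 of 8632 genes. Within groups, 9 ratios passed in place of 2, of 6 genes each in *Lyve1*+, *Ccr2*+ and *Lyz1*-high cells and 5 in *Trem2*+ cells. Over all genes 2876 passed in place of 771, of 5980, 7776, 6372 and 4577 genes counted in the same groups. For groups over the cells outside, 23 ratios passed in place of 16, of 6 genes in each group and library. Over all genes 11416 passed in place of 4071, of 7515 CD and 6337 HFD genes counted in each group. With no minimum of UMIs, all-gene counts were 3971, 15824 and 36775, and 4 ratios of the 7 genes passed in the groups. With the minimum and the 2-fold limit kept, the count of 2 within groups became 1 with endothelial UMIs allowed and 5 without adipocyte UMIs. Ratios to the cells outside past 2-fold fell from 16 to 8 when cells were thinned, but fewer ratios could be counted there. The minimum of 100 UMIs then left out *Fabp5* (74 UMIs in CD and 53 in HFD), *Slc27a4* (33 and 26) and CD *Slc27a1* (94). In *Trem2*+ cells, with the marker call unchanged, HFD over CD ran from 1.17 to 1.51 for *Lpl* and from 0.31 (all barcodes) to 1.80 for *Fabp4*. No paired analysis was possible because each diet has 1 library and the labels give no replicate numbers.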
